A study of Rattus norvegicus with 6 samples.

Results

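Transcript levels relative to rest were measured in mast cells that had received the Syk inhibitor R406 before curdlan. The comparison uses 4 of the 6 arrays of the study: 2 titled for R406 and 2 unstimulated controls, chosen by their titles, with all 29214 probe sets. All 6 arrays came from RBL-2H3, a rat basophilic leukaemia line used as a mast cell model, stably overexpressing wild-type Dectin-1, so controls carry the receptor too. Control cells received no stimulus, and the other 2 arrays came from cells given curdlan alone. The sources used here do not give doses, times, the vehicle or whether the line is 1 clone. Cells given R406 without curdlan were not analysed here, so an effect of R406 on resting cells and what remains of the curdlan response under R406 cannot be told apart.

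Dectin-1 is a C-type lectin receptor for beta-glucans such as curdlan, and carries a tyrosine motif in its cytoplasmic tail that recruits the kinase Syk. Syk couples such receptors, and the high-affinity IgE receptor of mast cells, to calcium, to the ERK and other MAP kinases, to PI3 kinase and to NF-kB, and thereby to cytokine genes. R406 is the active form of fostamatinib; it inhibits Syk and also several other kinases. Transcripts that turn over fast, such as immediate early genes and the feedback phosphatases of ERK, follow the activity of these pathways closely, while factors of the FOXO family are held out of the nucleus by PI3 kinase and AKT.

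Values are log2 signals as deposited by the authors, a change is the mean of the 2 R406 plus curdlan arrays minus the mean of the 2 control arrays, and errors are standard errors (SE) from 1 limma model of all 6 arrays. Calls were made at a p below 0.05 after Benjamini-Hochberg adjustment across the whole array. Array medians lay between 7.2041 and 7.2411, and control arrays correlated with R406 plus curdlan arrays at 0.99509 to 0.99674. Whether both arrays of a group represent independent cultures is not stated, so each p reflects only array-to-array spread, which may be technical. The labelled cell type was borne out by its markers: of 12 mast cell markers, all but Tph1 lay at or above the 89.6th percentile of the control signals, led by Srgn, Cpa3 and Ms4a2. Markers of other lineages had mostly dim signals, below the median probe set for 17 of 20 macrophage and neutrophil genes, 15 of 19 lymphocyte genes and 14 of 20 fibroblast and epithelial genes. On this scale no signal is 0. Clec7a, the rat gene for Dectin-1, had control signals of 7.20 and 6.94 and R406 plus curdlan signals of 7.15 and 7.10, a change of 0.05 ± 0.0931 (adjusted p = 0.804). Whether these probes can see the transgene is unknown. Syk itself, at 9.17 and 9.12 in control and 9.09 and 9.09 under R406 plus curdlan, changed by -0.05 ± 0.0452 (adjusted p = 0.548).

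The R406 plus curdlan arrays differed from rest in both directions. The largest falls were those of the early genes Egr1 and Myc and of the ERK phosphatase gene Dusp6, and the largest rises those of Bcl6, Txnip and Tcp11l2. Of 29214 probe sets 652 were called (2.23%), 421 of them higher (1.44%) and 231 lower (0.791%). Counted as named genes, each by its brightest probe set, 438 of 14506 were called (3.02%), 279 higher (1.92%) and 159 lower (1.10%). The median control signal was 9.40 for genes called higher and 10.23 for genes called lower, against 7.84 for all named genes. Shares of all genes set beside the lists below are not matched for signal. Among named genes the falls reached further than the rises. Of these genes 23 were called at least 2-fold lower (0.159%) and 13 at least 2-fold higher (0.0896%). Over all probe sets, including those without a symbol, the same threshold gave 28 lower and 26 higher. The 5th and 95th percentiles of the change over all genes were -0.267 and 0.266, and the median was -0.0195. The arrays of both groups did not overlap for 57.4% of genes (25.9% higher and 31.5% lower). Curdlan alone, set against the same control arrays, gave calls for 2.13% of genes, 1.42% higher and 0.710% lower. With 2 arrays a group these counts depended on each array. When either control array was left out 17 probe sets were called, and 182 when either curdlan array was. Leaving out R406 plus curdlan replicate 1 gave 19, and leaving out replicate 2 of that group gave 15. Where a control or R406 plus curdlan array was left out, the lone array of that group is assumed to vary like the other groups. Leaving out either curdlan array gives the same fit of this comparison, since a group of 1 array adds nothing to the spread. The genes called in each of these fits among those named by rule were Egr1, Myc, Dusp6, Plk3, Dusp4, Osm, Ier3, Spry4, Cish and Dusp5, all lower, and Bcl6, Txnip, Tcp11l2 and Ypel3, all higher.

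**Figure D1:**
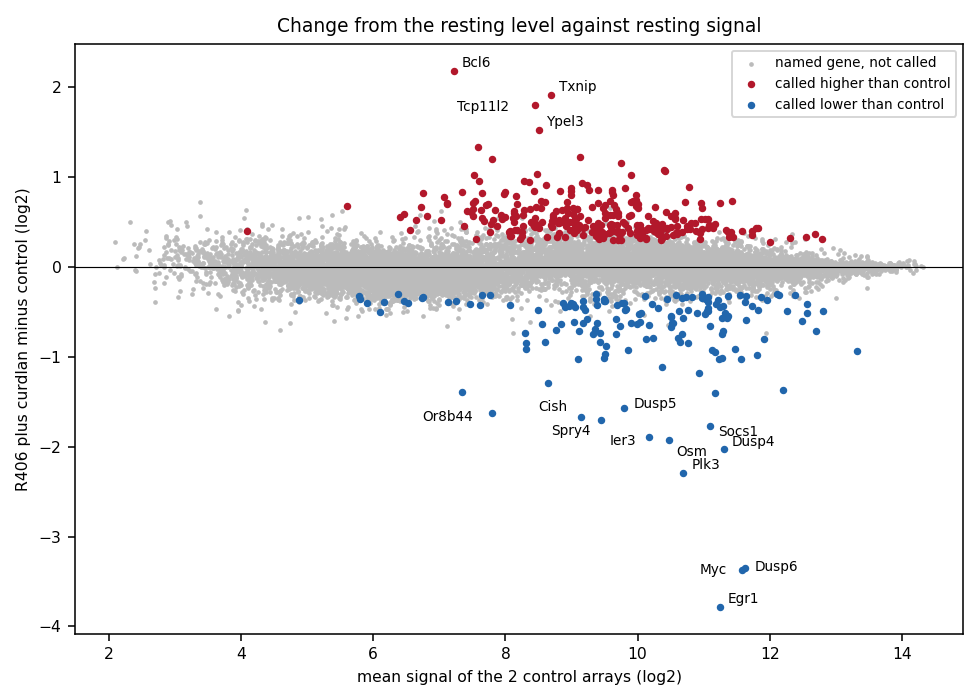
Each point is 1 of 14506 named genes, placed by its mean log2 signal on the 2 control arrays and by its change from control to R406 plus curdlan in log2 units, with genes called higher in red and called lower in blue. Egr1, Myc and Dusp6 lie apart at the bottom with changes of -3.78, -3.38 and -3.34, and Bcl6 at 2.18 and Txnip at 1.92 lie at the top.

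Several feedback genes of the ERK pathway were lower than at rest. Of 27 measured members of this list 10 were called lower and 0 higher, a share of 37% against 1.10% of all genes, with a median change of -0.164 against -0.0195. Dusp6, which encodes the cytoplasmic phosphatase of ERK (probe set 10895144), had control signals of 11.65 and 11.61 and R406 plus curdlan signals of 8.24 and 8.32. Its change was -3.34 ± 0.0706, or 10.2-fold (adjusted p = 0.000513), although its signals with curdlan alone, 12.18 and 12.34, were above rest. Dusp4, a nuclear phosphatase of the same family, went from 11.29 and 11.31 at rest to 9.30 and 9.24, a fall of 2.03 ± 0.0463 (adjusted p = 0.000571). Dusp5, also nuclear and ERK-specific, went from 9.78 and 9.81 to 8.25 and 8.18 and fell by 1.57 ± 0.0557 (adjusted p = 0.00169). In these 3 phosphatase genes the curdlan, control and R406 plus curdlan arrays formed 3 separate steps, with curdlan highest. Spry4, a Sprouty inhibitor of receptor tyrosine kinase signalling, had the same order, but its curdlan step was small and not called. Its curdlan signals of 9.51 and 9.59 differed from control signals of 9.47 and 9.43 by 0.10 ± 0.0513 (adjusted p = 0.489), while its signals under R406 plus curdlan were 7.76 and 7.74, a fall of 1.70 ± 0.0513 (adjusted p = 0.000987). Spred2, a Spry relative that restrains RAF activation, also had no called curdlan change, at -0.08 ± 0.0445 (adjusted p = 0.485). It fell by 0.79 ± 0.0445 with R406 plus curdlan. The cyclin gene Ccnd1, a classical output of sustained ERK activity, fell by 0.64 ± 0.0789. Without 1 array 4 to 5 members of the list were called lower, 4 of them without either control replicate or either R406 plus curdlan replicate.

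Immediate early genes, induced by stimuli without new protein synthesis, contained the largest falls of all. Of 39 measured members 11 were called lower and 4 higher, shares of 28.2% and 10.3% against 1.10% and 1.92% of all genes. The median change was -0.248. Egr1, a zinc finger transcription factor gene (probe set 10800919), was bright at rest, at 11.14 and 11.35, and dropped to 7.48 and 7.44. The change was -3.78 ± 0.0792, or 13.8-fold (adjusted p = 0.000513), whereas curdlan alone gave 12.12 and 12.16. Myc, the growth-promoting transcription factor gene (probe set 10896814), went from 11.65 and 11.51 to 8.29 and 8.12, a change of -3.38 ± 0.0807, or 10.4-fold (adjusted p = 0.000583). Its curdlan change of 0.55 ± 0.0807 did not pass (adjusted p = 0.0537), so the distance below rest was the larger part of its range. Plk3, a stress-responsive polo-like kinase gene, fell by 2.30 ± 0.0438 and Ier3, a survival-linked early gene, fell by 1.89 ± 0.0548. Both lay above rest with curdlan alone, at 1.02 ± 0.0438 and 1.41 ± 0.0548. Smaller falls were those of Egr3 at -0.74 ± 0.0702, whose signals went from 8.23 and 8.37 at rest to 7.51 and 7.61, of the AP-1 gene Junb at -0.63 ± 0.0462 and of the mRNA decay factor gene Zfp36 at -0.58 ± 0.0472. Srf, which encodes the serum response factor, fell by 0.44 ± 0.0509; it, Junb, Zfp36 and Ier2 at -0.63 ± 0.0669 were singled out in this list after their values were seen.

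The early genes did not move as a block. The orphan nuclear receptor gene Nr4a2 was called above rest at 0.70 ± 0.0931 (adjusted p = 0.0367), with signals of 8.24 and 8.12 in control, 8.89 and 8.87 under R406 plus curdlan and 11.57 and 11.81 with curdlan alone. Its arrays under R406 plus curdlan lay between those of the other groups and overlapped neither. Its relative Nr4a3 was near rest, at 7.03 and 7.10 in control and 6.87 and 6.95 under R406 plus curdlan (-0.15 ± 0.096, adjusted p = 0.432), although curdlan alone gave 10.41 and 10.67. Nr4a1 had a change of -0.33 ± 0.12 (adjusted p = 0.222). The Krüppel-like repressor genes Klf11 and Klf10 rose by 0.63 ± 0.075 and 0.37 ± 0.0545, and Csrnp2 rose by 0.39 ± 0.0566. Without 1 array, 4 to 6 members of the list were called lower and 0 to 1 higher; no fit without 1 array called all 4 that rose.

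**Figure D2:**
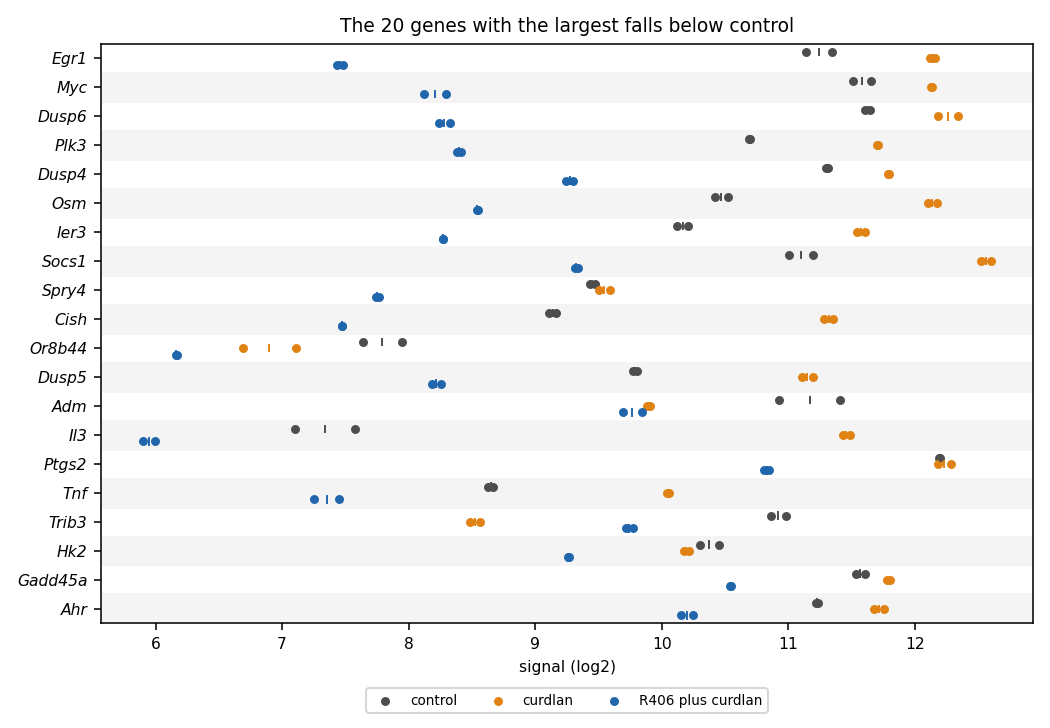
Log2 signals of the 20 genes with the largest falls below control, with 1 point per array and a tick at each group mean, for control (grey), curdlan (orange) and R406 plus curdlan (blue). The blue points lie below the grey points in all 20 genes, as the choice of genes requires, with changes from -3.78 for Egr1 at the top to -1.03 for Ahr at the bottom, while the orange points lie above the grey in some, such as Il3, and below in others, such as Trib3.

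Promoter sequence is shown for Dusp5 because its window holds 2 adjacent copies of the CArG box, the site bound by the serum response factor at many immediate early genes. The window is the 250 bases before the transcription start in RefSeq's GRCr8 annotation, chr1:262543524-262543773 on the plus strand, with the CArG boxes in capitals.
Dusp5: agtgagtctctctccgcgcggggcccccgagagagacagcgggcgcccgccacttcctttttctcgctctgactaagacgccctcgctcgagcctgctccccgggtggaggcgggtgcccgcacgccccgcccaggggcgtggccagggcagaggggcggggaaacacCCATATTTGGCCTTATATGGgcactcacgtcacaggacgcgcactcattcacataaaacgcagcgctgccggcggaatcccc
The first letters of the 2 matches lie 82 and 72 bases before the start. A CArG box on either strand was found in the windows of 9 of 132 genes called lower (6.82%) and of 1 of 232 called higher (0.431%), against 149 of all 11968 measured genes with a window (1.24%). A match describes these letters and is not a measured site.

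Several genes of cytokine signalling fell below rest, among them ligands and feedback inhibitors of JAK-STAT signalling. Among 47 interleukin, growth factor and TNF family ligand genes 6 were called lower (12.8%, against 1.10% of all genes) and 0 higher. Of the 47, 34 had control signals below the median probe set. Osm, which encodes oncostatin M of the IL-6 family, had signals of 10.52 and 10.42 at rest and 8.55 and 8.54 under R406 plus curdlan, a change of -1.93 ± 0.0574, or 3.8-fold (adjusted p = 0.000987). Its neighbour in function Lif fell by 0.93 ± 0.0826 (adjusted p = 0.0158), from 9.94 and 9.75 to 8.95 and 8.89. Both were above rest with curdlan alone, at 1.67 ± 0.0574 and 1.27 ± 0.0826. Il3, a mast cell growth factor gene with the largest curdlan rise of any named gene, went from 7.58 and 7.10 at rest to 5.90 and 5.997, against 11.49 and 11.43 with curdlan. Its fall was 1.39 ± 0.156 (adjusted p = 0.0263), and its control arrays lay farther apart than those of most genes. Tnf, the pro-inflammatory cytokine gene, fell by 1.30 ± 0.0763 (adjusted p = 0.00681), from 8.63 and 8.67 to 7.25 and 7.45. The macrophage growth factor gene Csf1 fell by 0.41 ± 0.0556.

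Other cytokine genes that curdlan raised were not called against rest under R406 plus curdlan. The type 2 cytokine gene Il13 had signals of 7.69 and 7.73 at rest and 7.56 and 7.40 under R406 plus curdlan, a change of -0.23 ± 0.0675 (adjusted p = 0.16), and 10.88 and 10.84 with curdlan alone. For Il4 the values were 6.40 and 6.06 at rest and 5.89 and 6.14 under R406 plus curdlan (-0.21 ± 0.14, adjusted p = 0.45), with 8.53 and 8.45 under curdlan. The Il4 arrays of control and R406 plus curdlan overlapped, and those of Il13 did not. Among 30 chemokine genes 2 were called lower (6.67%, against 1.10% of all genes) and 0 higher. Ccl2, the monocyte chemoattractant gene, fell by 0.62 ± 0.0613 from 9.34 and 9.44 to 8.73 and 8.80 (adjusted p = 0.0194), a small step beside its curdlan signals of 13.19 and 13.13. Ccl24 fell by 0.34 ± 0.0468, at dim signals of 6.73 and 6.79 in control and 6.43 and 6.42 under R406 plus curdlan, all below the array medians. Without 1 array 1 to 4 of the ligand genes were called lower, 1 without control replicate 1, and 0 of the chemokine genes were called by limma for each of the 6 arrays left out. At an unadjusted p under 0.05 in the fit of all arrays 6 chemokine genes were lower and 1 higher.

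Of 27 genes of JAK-STAT feedback and output 5 were called lower (18.5%) and 2 higher (7.41%), against 1.10% and 1.92% of all genes. Socs1, an inhibitor of JAK kinases, fell by 1.77 ± 0.0782 (adjusted p = 0.00356), from 11.20 and 11.004 to 9.34 and 9.31. Cish, a STAT5-induced inhibitor of cytokine receptors (probe set 10912908), went from 9.16 and 9.11 to 7.47 and 7.47, a change of -1.67 ± 0.0505, or 3.17-fold (adjusted p = 0.000987). With curdlan alone Cish stood at 11.35 and 11.28, so the 3 groups again formed separate steps. The survival kinase genes Pim1 and Pim3 fell by 0.71 ± 0.0461 and 0.51 ± 0.0674, and Socs2 by 0.32 ± 0.0443. In the other direction Bcl6, which encodes a transcriptional repressor that shares DNA sites with STAT factors (probe set 10751931), rose by 2.18 ± 0.0869, the largest rise of any named gene. Its signals were 7.15 and 7.30 at rest, 6.66 and 6.60 with curdlan and 9.49 and 9.32 under R406 plus curdlan, a 4.54-fold rise (adjusted p = 0.00271). Pias3, an inhibitor of STAT3, rose by 0.69 ± 0.0529. Among the 6 fits without 1 array, 1 to 3 members were called lower and 1 to 2 higher.

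The windows of Cish and Socs1 are shown because they hold the palindrome TTCNNNGAA, the core that STAT dimers bind, in capitals. The Cish window is chr8:116850719-116850968 and the Socs1 window chr10:5389324-5389573, both on the plus strand of GRCr8.
Cish: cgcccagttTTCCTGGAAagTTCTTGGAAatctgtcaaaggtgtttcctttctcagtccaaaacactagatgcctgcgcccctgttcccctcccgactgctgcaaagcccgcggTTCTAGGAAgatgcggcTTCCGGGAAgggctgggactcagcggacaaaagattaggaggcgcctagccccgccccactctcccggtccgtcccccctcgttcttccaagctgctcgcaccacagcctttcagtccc
Socs1: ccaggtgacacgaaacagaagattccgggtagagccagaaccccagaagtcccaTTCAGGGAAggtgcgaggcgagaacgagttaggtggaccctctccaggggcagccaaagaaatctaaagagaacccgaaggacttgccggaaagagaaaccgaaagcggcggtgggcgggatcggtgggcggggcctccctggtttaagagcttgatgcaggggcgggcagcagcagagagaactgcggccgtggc
Cish had 4 matches, beginning 241, 230, 136 and 119 bases before the start, and Socs1 had 1, beginning 196 bases before it. TTCNNNGAA was found for 12 of 132 genes called lower (9.09%) and 16 of 232 called higher (6.9%), against 6.88% of all measured genes with a window, so these shares lie near that of all genes.

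A group of stress and hypoxia genes lay below rest in both stimulated groups. Trib3, a pseudokinase gene induced by ATF4, had signals of 10.98 and 10.86 at rest, 8.48 and 8.57 with curdlan and 9.77 and 9.72 under R406 plus curdlan. Its fall under R406 plus curdlan was 1.18 ± 0.0648 (adjusted p = 0.00681), and its change under curdlan alone was -2.40 ± 0.0648. Ddit4, an inhibitor of mTORC1, showed the same order of groups, at 11.13 and 11.23, 7.83 and 7.59 and 10.22 and 10.24, and fell by 0.95 ± 0.0911 (adjusted p = 0.0184). Chac1, a glutathione-degrading enzyme, fell by 0.93 ± 0.0728 and the stress-induced factor Atf3 by 1.02 ± 0.135. For these 4 genes the R406 plus curdlan arrays stood between curdlan and control and overlapped neither. The 2 comparisons share the control arrays, so a control mean that is high by error lowers both changes. The control arrays of Atf3 differed by more than those of the other 3 genes, at 9.30 and 8.91. Of 29 measured genes of the integrated stress and unfolded protein responses 2 were called lower (6.9%), Trib3 and Chac1, and 1 higher (3.45%), the sensor kinase gene Eif2ak3 at 0.38 ± 0.0538, against 1.10% and 1.92% of all genes, with a median of -0.0132. Of 41 genes of amino acid synthesis, transport and tRNA charging, many of them ATF4 targets, 0 were called by limma, 5 were lower and 1 higher at an unadjusted p under 0.05, and eBayes with trend called 5 lower and 1 higher.

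Adm, the hypoxia-induced gene of the peptide adrenomedullin, had control signals of 10.93 and 11.41 and R406 plus curdlan signals of 9.84 and 9.69, a fall of 1.40 ± 0.164 (adjusted p = 0.0279). Its curdlan signals of 9.91 and 9.89 lay just above those under R406 plus curdlan, and the 2 control arrays lay well apart. Vegfa, the vascular growth factor gene, was more tightly measured, at 11.79 and 11.81, 11.08 and 11.09 and 10.82 and 10.83 in the same order of control, curdlan and R406 plus curdlan. It fell by 0.98 ± 0.0428 (adjusted p = 0.00356). The orphan receptor gene Gpr146 fell by 0.85 ± 0.0855, against -1.02 ± 0.0855 with curdlan alone. Of 40 genes of glycolysis, hypoxia and glucose uptake 3 were called lower (7.5%) and 1 higher (2.5%), against 1.10% and 1.92% of all genes. Hk2, the inducible hexokinase gene, fell by 1.11 ± 0.0645 (adjusted p = 0.00681), and Pfkfb3, which sets the level of the main activator of phosphofructokinase, by 0.40 ± 0.0553. The sister isoform Pfkfb1 rose by 0.60 ± 0.0614.

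Further genes fell below rest that curdlan alone had not moved past the threshold. Ptgs2, the inducible cyclooxygenase gene, had the highest resting signal among the 20 largest falls, at 12.19 and 12.20 in control, 12.18 and 12.29 with curdlan and 10.81 and 10.85 under R406 plus curdlan. Its fall was 1.37 ± 0.0547 (adjusted p = 0.00271) beside a curdlan change of 0.04 ± 0.0547 (adjusted p = 0.833). Gadd45a, a growth arrest and DNA damage gene, fell by 1.03 ± 0.0487, with a curdlan change of 0.22 ± 0.0487 (adjusted p = 0.127). Cd200r1, an inhibitory receptor of myeloid cells, fell by 0.91 ± 0.0596, and P2ry1, an ADP receptor, fell by 0.75 ± 0.0465. Ahr, the aryl hydrocarbon receptor gene, fell by 1.03 ± 0.0564, but its curdlan change of 0.49 ± 0.0564 was also called (adjusted p = 0.0331). In the clock list 4 of 19 genes were called lower (21.1%) and 1 higher (5.26%), against 1.10% and 1.92% of all genes. The repressor gene Bhlhe40 at -0.94 ± 0.0451, Per2 at -0.70 ± 0.0615, Nfil3 at -0.48 ± 0.0541 and Per1 at -0.38 ± 0.0498 fell. Nr1d2, which encodes the nuclear receptor REV-ERB beta, rose by 1.02 ± 0.0948. Of the clock genes 1 was called in each direction without curdlan replicate 1 or 2, and 0 without any of the other 4 arrays. The olfactory receptor gene Or8b44 was also among the 20 largest falls; its control signals of 7.95 and 7.64 and R406 plus curdlan signals of 6.16 and 6.17 differed by -1.63 ± 0.167 (adjusted p = 0.0206).

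Above rest, the list of genes linked to growth arrest and to FOXO factors had the most called members. Of 44 measured members 18 were called higher (40.9%) and 0 lower, against 1.92% and 1.10% of all genes, and the median change was 0.27. The other 26 were not called, and 12 of the 44 had a change below 0. Among those 12, singled out after their values were seen, were Cdkn1a at -0.31 ± 0.0697, Foxo1 at -0.14 ± 0.0543 and Insr at -0.08 ± 0.0809. As 6 members of this list had been named in an earlier description of these data, the list is not independent evidence of its direction. Among the other 38 members 12 were called higher and 0 lower, with a median change of 0.14. These 38 were also chosen with earlier results of these data known, so their count is not independent evidence either. Txnip, which encodes an arrestin that binds thioredoxin and limits glucose uptake (probe set 10817552), had control signals of 8.71 and 8.67 and R406 plus curdlan signals of 10.63 and 10.58. The rise was 3.77-fold, or 1.92 ± 0.0538 (adjusted p = 0.000987), and with curdlan alone the signals were 8.41 and 8.49. Tcp11l2 rose by 1.80 ± 0.0595 (adjusted p = 0.0013), from 8.38 and 8.51 to 10.22 and 10.26. Ypel3, a growth-suppressive member of the YPEL family, rose by 1.52 ± 0.0485 (adjusted p = 0.00115), from 8.48 and 8.53 to 10.02 and 10.03, and Ypel5 by 0.95 ± 0.056. The control and curdlan arrays of Ypel3 were close to each other, at a curdlan change of -0.08 ± 0.0485, and the R406 plus curdlan arrays lay above both groups. Klhl24, an adaptor of ubiquitin ligases, rose by 1.22 ± 0.0824 and Hbp1, an HMG-box repressor of cell cycle genes, by 1.02 ± 0.0609.

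Ccng2, the cyclin G2 gene and a known FOXO target, was raised less. Its signals were 10.88 and 11.04 at rest, 9.08 and 9.07 with curdlan and 11.51 and 11.48 under R406 plus curdlan, a rise above rest of 0.54 ± 0.0675 (adjusted p = 0.0323). The gene of the mitophagy kinase Pink1 rose by 0.91 ± 0.0648 (adjusted p = 0.0107), from 8.57 and 8.64 to 9.55 and 9.47. Bcl2l11, which encodes the death-promoting protein BIM, rose by 0.66 ± 0.0729 and the survival gene Bcl2 fell by 0.72 ± 0.0558. In the apoptosis list of 35 genes 2 were called higher (5.71%) and 4 lower (11.4%), against 1.92% and 1.10% of all genes. Besides Bcl2 and Gadd45a, the caspase gene Casp8 was called lower at -0.46 ± 0.0482 and Mdm2 at -0.34 ± 0.0509. Tp53inp1, a p53-induced gene, rose by 0.74 ± 0.0488. A further 3 genes, for partners of MAX that oppose Myc, were singled out after their values were seen: Mxd4 rose by 0.86 ± 0.0458, Mxd3 by 0.70 ± 0.0685 and Mxd1 by 0.68 ± 0.0516, while Mxi1, the other family member in the list, changed by 0.07 ± 0.0805 (adjusted p = 0.693). Without 1 array, 3 to 10 members of the growth arrest list were called higher, 10 without curdlan replicate 1 or 2 and 3 without any 1 of the control or R406 plus curdlan arrays.

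**Figure D3:**
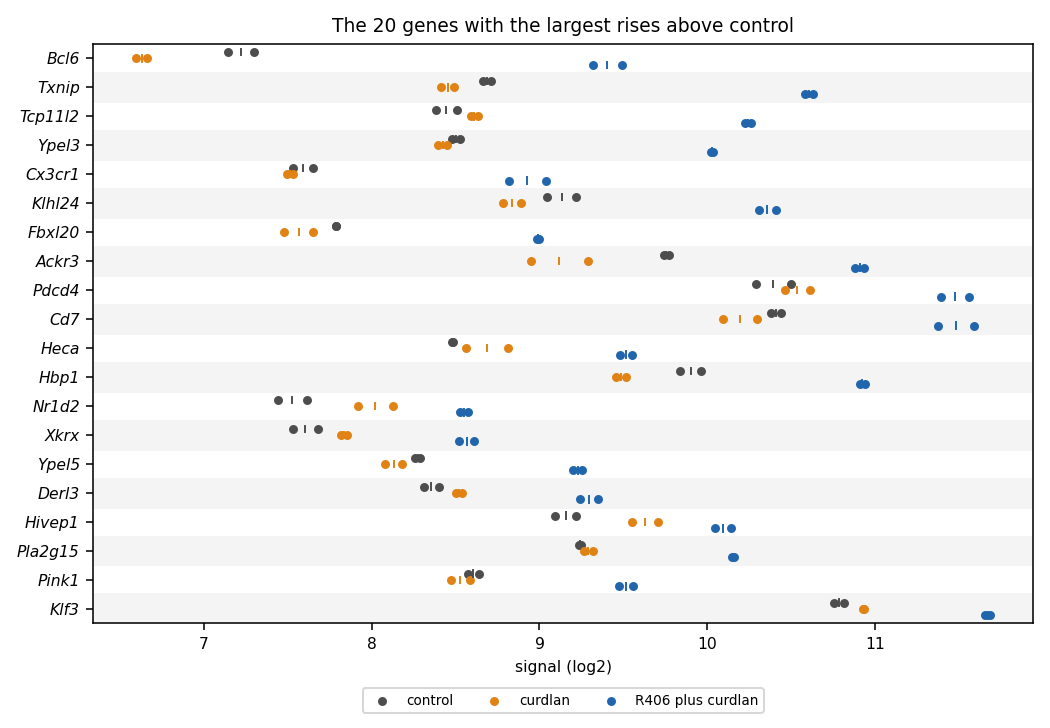
Log2 signals of the 20 genes with the largest rises above control, with 1 point per array and a tick at each group mean, for control (grey), curdlan (orange) and R406 plus curdlan (blue). The blue points lie above the grey points in all 20 genes, as the choice of genes requires, by 2.18 log2 units for Bcl6 at the top and 0.89 for Klf3 at the bottom.

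Windows of 4 raised genes are shown because they hold letters bound by FOXO factors, GTAAACA, or the E-box CACGTG, bound by Myc, MAX and MXD proteins among others. GTAAACA is in capitals for Hbp1 (chr6:54283260-54283509, minus strand) and Bcl2l11 (chr3:135819792-135820041, plus strand), and CACGTG for Bcl6 (chr11:90358503-90358752, plus strand) and Mxd4 (chr14:80786531-80786780, plus strand), all in GRCr8.
Hbp1: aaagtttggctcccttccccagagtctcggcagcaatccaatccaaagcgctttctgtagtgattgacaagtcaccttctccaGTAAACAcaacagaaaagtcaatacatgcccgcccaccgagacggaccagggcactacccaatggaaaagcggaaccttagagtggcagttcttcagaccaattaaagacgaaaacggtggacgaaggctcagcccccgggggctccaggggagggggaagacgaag
Bcl2l11: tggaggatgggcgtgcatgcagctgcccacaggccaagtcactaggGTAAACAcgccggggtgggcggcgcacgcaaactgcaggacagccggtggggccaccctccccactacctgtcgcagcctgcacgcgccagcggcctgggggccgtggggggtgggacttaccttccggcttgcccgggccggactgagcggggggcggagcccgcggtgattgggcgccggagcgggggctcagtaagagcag
Bcl6: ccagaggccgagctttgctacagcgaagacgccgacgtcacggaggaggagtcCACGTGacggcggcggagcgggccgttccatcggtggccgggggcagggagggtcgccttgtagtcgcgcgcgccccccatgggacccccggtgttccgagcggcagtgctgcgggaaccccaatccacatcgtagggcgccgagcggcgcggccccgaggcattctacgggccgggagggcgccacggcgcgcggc
Mxd4: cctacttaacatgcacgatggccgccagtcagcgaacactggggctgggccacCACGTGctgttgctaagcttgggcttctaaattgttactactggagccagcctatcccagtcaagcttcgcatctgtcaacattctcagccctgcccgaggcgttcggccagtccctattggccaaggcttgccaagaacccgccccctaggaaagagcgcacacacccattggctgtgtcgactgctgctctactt
The match begins 167 bases before the start in Hbp1, 204 in Bcl2l11, and 197 in both Bcl6 and Mxd4. GTAAACA on either strand was found in 14 of 232 genes called higher (6.03%) and 2 of 132 called lower (1.52%), against 2.72% of all measured genes with a window. CACGTG was found in 25 of 232 (10.8%) and 11 of 132 (8.33%), against 7.07%. The ETS letters ACCGGAAG were found in 1.72% of genes called higher and 1.52% of those called lower, against 3.11% of all. For TGACGTCA, bound by CREB and ATF factors, these shares were 2.16% and 2.27% against 2.33%, and for the AP-1 letters TGANTCA 6.03% and 6.06% against 5.76%.

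Receptors for chemokines and other attractants went both ways. Of 34 measured genes 4 were called higher (11.8%) and 3 lower (8.82%), against 1.92% and 1.10% of all genes. Cx3cr1, the fractalkine receptor gene, rose by 1.34 ± 0.0894 (adjusted p = 0.00909), from 7.53 and 7.65 to 9.04 and 8.82. Ackr3, a scavenging receptor for CXCL12, rose by 1.15 ± 0.116 (adjusted p = 0.0201), from 9.74 and 9.77 to 10.93 and 10.88. Cxcr4, the signalling receptor for the same ligand, had control signals of 8.61 and 8.84 and R406 plus curdlan signals of 9.03 and 9.09; its change of 0.34 ± 0.0863 did not pass (adjusted p = 0.128). The adenosine receptor gene Adora2b rose by 0.85 ± 0.063 and the sphingosine 1-phosphate receptor gene S1pr2 by 0.56 ± 0.0533. Gpr183, the receptor for oxysterols, fell by 0.35 ± 0.0477 although curdlan alone gave 1.45 ± 0.0477. Without curdlan replicate 1 or 2, 3 of these genes were called higher and 1 lower, and without any 1 of the other 4 arrays 0 were called.

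Among the other large rises, Pdcd4, an inhibitor of translation initiation, rose by 1.08 ± 0.103 (adjusted p = 0.0182) and Fbxl20, an F-box adaptor of ubiquitin ligases, by 1.20 ± 0.0685. The second, dimmer Fbxl20 probe set stood at 0.25 (adjusted p = 0.182). Cd7, which encodes a surface protein of T cells and some myeloid cells, rose by 1.07 ± 0.102 (adjusted p = 0.0182), from 10.38 and 10.44 to 11.59 and 11.37. It was the only called member of 19 lymphocyte markers, whose summed signal was 11.58 to 11.64 in control and 12.10 to 12.23 under R406 plus curdlan on the log2 scale. The median change of the lymphocyte list was -0.0438, 11 of its 19 members were below 0, and at an unadjusted p under 0.05 2 were lower and Cd7 alone higher. Of the macrophage and neutrophil markers 0 were called by limma, 1 being lower at an unadjusted p under 0.05, and of the fibroblast and epithelial markers likewise 0, with 3 lower. Their summed signals were 11.69 in both control arrays against 11.63 to 11.64, and 12.60 to 12.65 against 12.62 to 12.65. The part of these markers in the other results was not tested. Heca rose by 1.04 ± 0.0912, the XK-related gene Xkrx by 0.96 ± 0.0686, the zinc finger gene Hivep1 by 0.94 ± 0.0807, the repressor gene Klf3 by 0.89 ± 0.0471, and Derl3, a component of protein export from the endoplasmic reticulum, by 0.94 ± 0.0616. Pla2g15, a lysosomal phospholipase gene, rose by 0.91 ± 0.0464 (adjusted p = 0.00606).

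The called autophagy genes were all higher than at rest. Of 48 genes of lysosome and autophagy 7 were called higher (14.6%) and 0 lower, with a median change of 0.0836. The initiating kinase genes Ulk1 and Ulk2 rose by 0.65 ± 0.0468 and 0.60 ± 0.0485, from 9.11 and 9.07 to 9.71 and 9.76 for Ulk1. Wipi1, which binds the lipid of forming autophagosomes, rose by 0.57 ± 0.0546, Atg14, a subunit of the lipid kinase complex, by 0.50 ± 0.0679, and the cargo receptor gene Sqstm1 by 0.32 ± 0.0451. Gabarapl1, of the ubiquitin-like family that coats autophagosomes, rose by 0.39 ± 0.0465. In the mTORC1 list of 23 genes 1 was called higher and 1 lower (4.35% each), against 1.92% and 1.10% of all genes. Flcn, which encodes folliculin, rose by 0.49 ± 0.0592 and Ddit4 was the gene called lower. Without curdlan replicate 1 or 2, 3 of the autophagy genes were called higher, and without any 1 of the other 4 arrays 0 were.

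In the mitosis list 10 members were called higher and in the ribosome biogenesis list 6 were called lower, while most members of both were not called. All 39 measured genes of mitosis and G2/M had a change above 0, compared with 43.6% of all named genes, and 10 were called higher (25.6%), with a median change of 0.231. Nusap1, a spindle protein, rose by 0.65 ± 0.0528, the mitotic kinase Aurka by 0.56 ± 0.0569, the CDK-activating phosphatase Cdc25b by 0.54 ± 0.0445 and the mitotic transcription factor Foxm1 by 0.42 ± 0.046. In bulk RNA a larger share of cells in mitosis and more RNA per mitotic cell cannot be told apart. Of 41 genes of G1/S and DNA replication 1 was called higher (2.44%), E2f7 at 0.46 ± 0.0533, and 1 lower (2.44%), Ccnd1, with a median of -0.00745. Over all genes these shares were 1.92% and 1.10%. Of 65 genes of ribosome biogenesis and RNA polymerase I 64 had a change below 0, compared with 56.4% of all named genes, and 6 were called lower (9.23%), with a median of -0.176. Polr1b, a core subunit of RNA polymerase I, fell by 0.55 ± 0.0512, from 11.41 and 11.33 to 10.82 and 10.83. The ribosome assembly factors Ppan and Wdr43 fell by 0.51 ± 0.0626 and 0.49 ± 0.0478. Without curdlan replicate 1 or 2, 3 mitotic genes were called, without any 1 of the other 4 arrays 0 were, and of the ribosome biogenesis genes 0 were called for each of the 6 arrays left out. With the replicate number as a block 0 of either list were called. At an unadjusted p under 0.05 in the fit of all arrays 30 mitotic genes were higher and 44 ribosome biogenesis genes lower. A model that lets the spread depend on the signal (eBayes with trend) called 27 mitotic genes higher and 39 ribosome biogenesis genes lower. Members of such lists are expressed together and are not replicates of the condition. Of 40 ribosomal protein genes themselves 0 were called by limma, 0 at an unadjusted p under 0.05 and 1 lower by eBayes with trend, with a median of -0.00553.

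**Figure D4:**
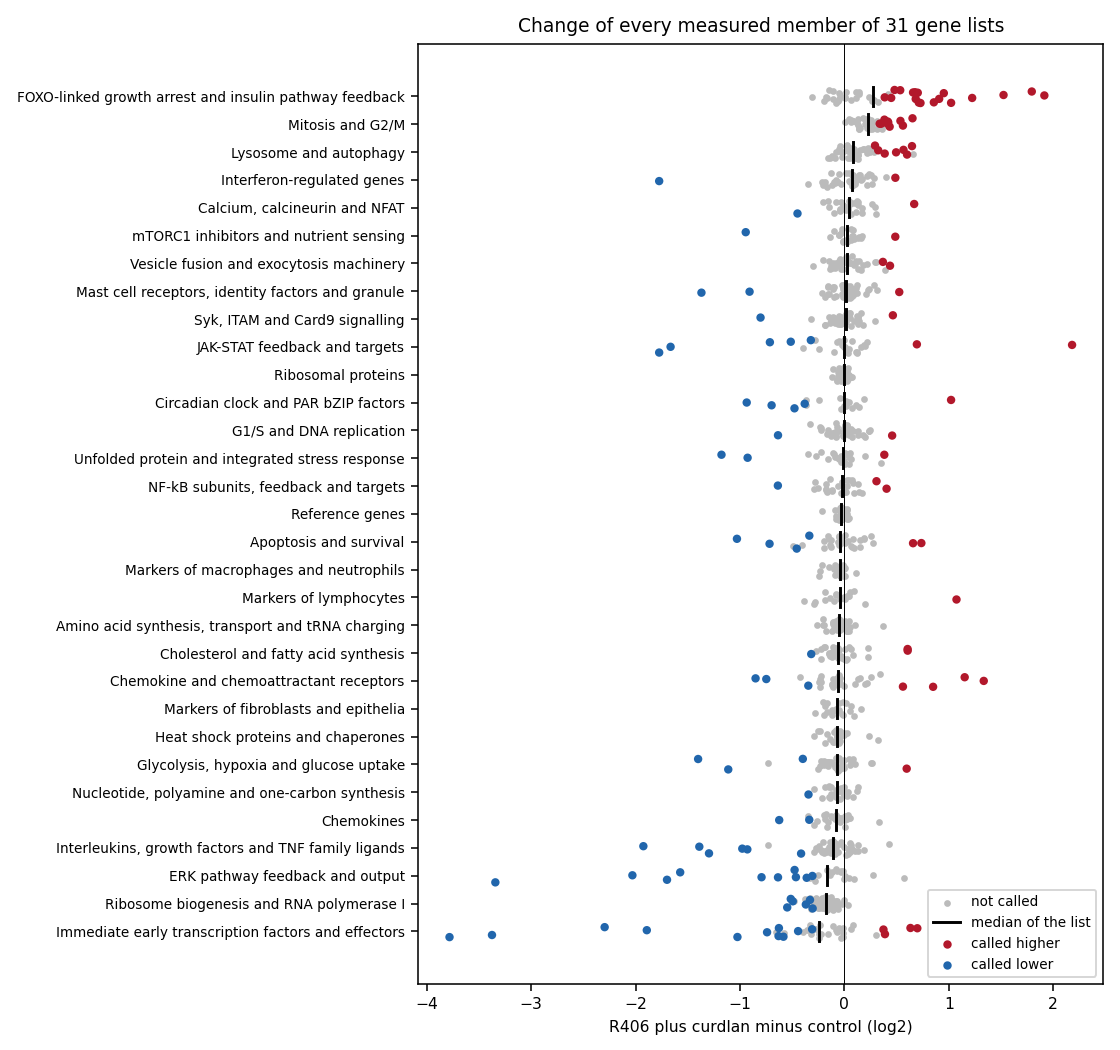
Change from control to R406 plus curdlan in log2 units for each measured member of 31 gene lists, ordered by list median (black tick), with members called higher in red, called lower in blue and not called in grey. The growth arrest list (median 0.27) and the mitosis list (0.231) stand at the top, and the immediate early list (-0.248) and the ribosome biogenesis list (-0.176) at the bottom.

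Of 46 genes of mast cell receptors, identity factors and granule 1 was called higher (2.17%) and 2 lower (4.35%), against 1.92% and 1.10% of all genes, with a median of 0.0195. The called genes were Mrgprx2, a receptor for basic secretagogues, at 0.53 ± 0.0633, and Ptgs2 and Cd200r1. Mrgprx2 was dim, at 6.67 and 6.62 in control, below the array medians, and 7.22 and 7.12 under R406 plus curdlan. Kit, the stem cell factor receptor gene, had signals of 12.68 and 12.73 and 12.79 and 12.82 in control and R406 plus curdlan (0.10 ± 0.062, adjusted p = 0.444). The IgE receptor subunit genes Fcer1a and Ms4a2 changed by -0.11 ± 0.0457 and 0.02 ± 0.0426 (adjusted p = 0.275 and 0.789), and the histamine-forming enzyme gene Hdc by -0.01 ± 0.0449 (adjusted p = 0.911). Of 39 genes of Syk, ITAM and Card9 signalling 1 was called higher (2.56%), the RAS exchange factor gene Sos1 at 0.46 ± 0.0425, and 1 lower (2.56%), the adaptor gene Sla at -0.80 ± 0.0552. These shares lie near those of all genes. Among 30 genes of calcium, calcineurin and NFAT 1 was called higher (3.33%), the store-operated channel subunit Orai2 at 0.67 ± 0.0662. Nfatc2, at -0.45 ± 0.0684, was the 1 called lower (3.33%). Of 39 genes of vesicle fusion and exocytosis 2 were called higher (5.13%), Stx11 at 0.44 ± 0.0518 and Stxbp3 at 0.37 ± 0.0462, and 0 lower. Of these 39 genes 18 had a change below 0. At an unadjusted p under 0.05, 9 were higher and 2 lower, and eBayes with trend called 6 higher and 1 lower.

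NF-kB genes were called in both directions. Of 27 measured 2 were called higher (7.41%) and 1 lower (3.70%), against 1.92% and 1.10% of all genes, with a median of -0.0197. Nfkbia, the inhibitor I-kappa-B alpha and a direct NF-kB target, lay above rest at 0.31 ± 0.044 (adjusted p = 0.0432), with signals of 10.13 and 10.12 at rest, 10.45 and 10.42 under R406 plus curdlan and 10.86 and 10.87 with curdlan. Tnip1, a partner of the deubiquitinase A20, rose by 0.40 ± 0.058, and the inhibitor of apoptosis gene Birc3 fell by 0.64 ± 0.0648. Of 38 interferon-regulated genes 1 was called higher (2.63%), Irf2 at 0.49 ± 0.0703, and 1 lower (2.63%), Socs1. Of 33 genes of cholesterol and fatty acid synthesis 2 were called higher (6.06%) and 1 lower (3.03%). Mylip and Abcg1, both targets of the sterol-sensing LXR receptors, rose by 0.61 ± 0.0525 and 0.61 ± 0.046, and Msmo1 fell by 0.32 ± 0.0471. Of 29 genes of nucleotide and polyamine synthesis Umps alone was called (3.45%), at -0.35 ± 0.0479. In that list 24 genes had a change below 0, and at an unadjusted p under 0.05, 7 were lower and 1 higher. By eBayes with trend 6 of its genes were called lower and 0 higher. The lists of 25 heat shock proteins and 20 reference genes had 0 calls by limma and medians of -0.0677 and -0.0311. At an unadjusted p under 0.05, 2 heat shock genes were higher and 5 lower, and 1 reference gene was lower. Without 1 array, 0 members of the NF-kB list were called for each of the 6 arrays left out.

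**Figure D5:**
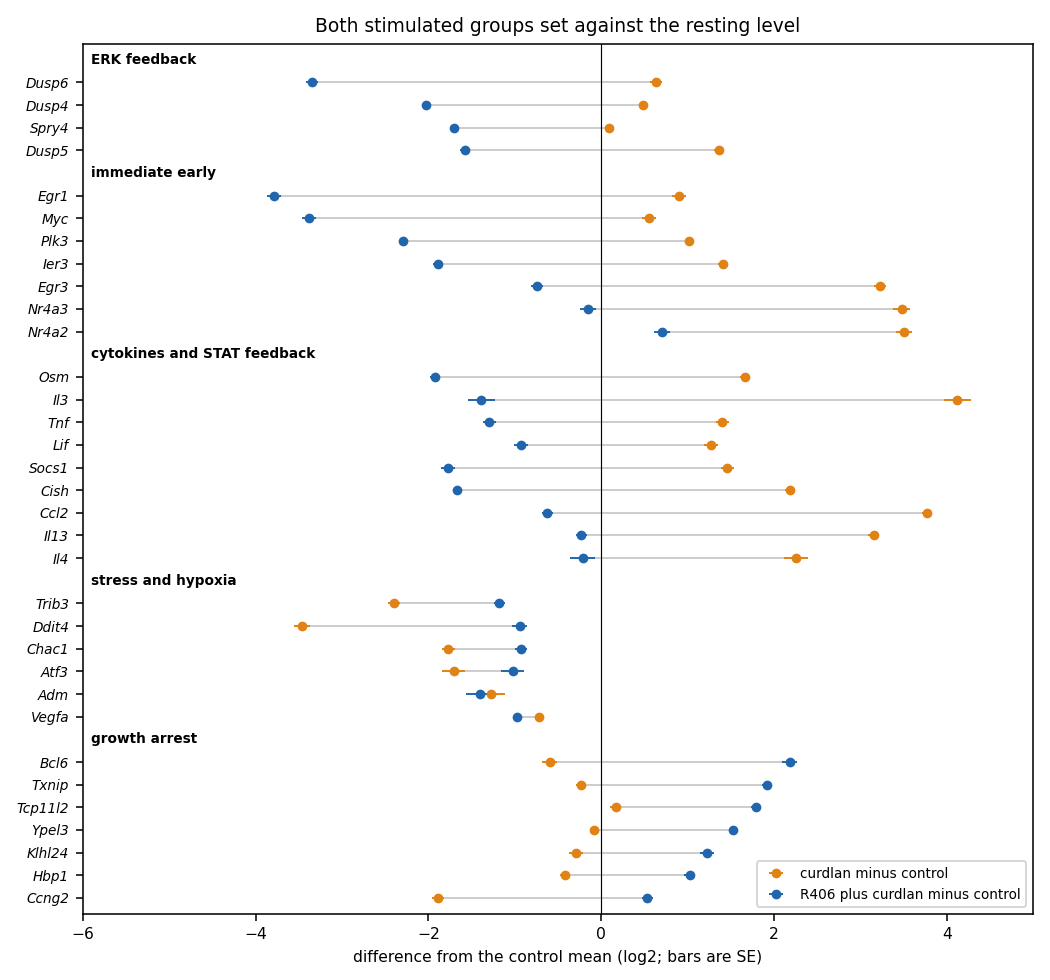
Differences from the control mean in log2 units for curdlan alone (orange) and R406 plus curdlan (blue), with SE bars, for 33 named genes in 5 groups; both differences use the same 2 control arrays. Most ERK feedback, early and cytokine genes lie on opposite sides of rest, and the stress and hypoxia genes lie below rest in both. The 7 genes drawn under growth arrest lie above rest under R406 plus curdlan. They include Bcl6, which the text counts in the JAK-STAT list.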

How the data were processed

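Rat Affymetrix arrays of 6 samples in 3 groups of 2 were used, grouped by their titles. The deposited values are log2 signals per probe set, which the authors produced in Affymetrix Expression Console according to the submitters' processing notes. The sources used here do not give its version, background correction, summarisation or normalization. No further normalization was applied. Changes were tested with limma 3.58.1 in R 4.3.3 in 1 model of the 3 groups, with 3 residual degrees of freedom, and p-values were adjusted by Benjamini-Hochberg over 29214 probe sets, with calls at an adjusted p under 0.05. The procedure was also run on simulated data whose noise was drawn independently from the spread that limma estimated. That run cannot show whether calls hold where the arrays of a group may be technical repeats. The number of arrays limits the precision.

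Genes were named through the platform annotation: 15310 probe sets had 1 symbol, 323 several and 13581 none. A gene with several probe sets was represented by the brightest. Named genes were the 20 largest rises and the 20 largest falls that were called with separate arrays, from each list the 6 largest called changes in either direction, and a fixed set of mast cell, cytokine and signalling genes; others are marked as singled out, or are called members of a list given in full. The members and lists were chosen with earlier results of these data known. Promoter windows and the 7 motifs, searched on both strands, come from RefSeq's GRCr8 tables and were chosen after the values were seen. Motif matches can overlap each other. Alternatives covered the arrays in the fit, scaling, filters, the empirical Bayes step, thresholds and the replicate number as a block.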

Additional observations from a re-analysis of the deposited data

How the results depend on the processing

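The count of probe sets called, 652 (421 higher and 231 lower), stayed within 1.5 times under quantile normalization and with each array centred on its median. It was 182 (118 and 64) with only the 4 control and R406 plus curdlan arrays, 2278 (1425 and 853) when dim probe sets (mean signal under the median) were left out, 1090 (658 and 432) among those with 1 symbol, and 2341 (1476 and 865) by eBayes with trend. It was 66 (30 and 36) at an adjusted p under 0.01 and 54 (26 and 28) with a change of at least 2-fold. Leaving out 1 array gave 15 to 182 probe sets, 4 to 118 higher and 11 to 64 lower. With the replicate block 62 were called (24 higher and 38 lower). The titles number the arrays but do not say that a number marks a shared culture or day. Same-numbered control and R406 plus curdlan arrays deviated with a correlation of -0.0045. That correlation was -0.115 for control and curdlan arrays and 0.113 for curdlan and R406 plus curdlan arrays. Apart from the fits with fewer arrays, the cause of these changes in count was not tested. Of 124 named genes 113 were called, and 14 of these were called under each alternative that could test them, which come to 11 distinct fits, since the fit of 4 arrays and those without 1 curdlan array are the same for this comparison. The direction turned for 2 genes that were not called: Hdc was 0.013 with arrays centred on their median, and Clec7a ranged from -0.080 without control replicate 2 to 0.181 without control replicate 1. With 2 arrays a group, the number of arrays limits what can be called.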

Other observations

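The following lists were drawn up after the values were seen, and their counts describe the data without testing them. Over all genes 1.92% were called higher and 1.10% lower. The counts of these lists were not repeated with an array left out. Of 8 receptors that carry endoplasmic reticulum into autophagosomes 4 were called higher (50%): Calcoco1 at 0.85 ± 0.0718, Ccpg1 at 0.73 ± 0.0477, Retreg3 at 0.53 ± 0.0444 and Retreg2 at 0.42 ± 0.0546. Of 13 genes of TGF-beta receptors and feedback 4 were called higher (30.8%), among them the inhibitor Smad7 at 0.59 ± 0.0631 and the receptor Tgfbr1 at 0.51 ± 0.0594. Of 20 haematopoietic transcription factor genes 7 were called higher (35%) and 1 lower (5%). Among them the GATA partner Zfpm1 at 0.64 ± 0.0582 and the repressor Gfi1b at 0.57 ± 0.0729 rose, while Gfi1, the close relative of Gfi1b, was lower at -0.49 ± 0.0482. Of 10 genes of RNA silencing and 3' end uridylation 3 were called higher (30%), the Argonaute gene Ago4 at 0.73 ± 0.0459, the terminal uridylyltransferase gene Tut4 at 0.83 ± 0.0773 and Mex3b at 0.67 ± 0.0796. Of 19 genes of RNase P, RNase MRP and RNA polymerase III 3 were called lower (15.8%), Rpp38 at -0.83 ± 0.108, Polr3e at -0.52 ± 0.0554 and Pop1 at -0.48 ± 0.0667. Maf1, the repressor of RNA polymerase III, was the 1 called higher (5.26%), at 0.42 ± 0.043.

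Of the 652 called probe sets 208 could not be named from exactly 1 symbol. Probe set ps10903977 had a change of -1.41 and ps10903979 one of -1.27, with curdlan changes of -0.11 and 0.05, and ps10730472 had a change of 1.35. Of 1187 measured olfactory and vomeronasal receptor genes, a group singled out after its values were seen, 5 were called lower (0.421%, against 1.10% of all genes) and 0 higher by limma. At an unadjusted p under 0.05 64 were higher and 85 lower. The called genes were Or8b44, Or52e19 at -0.40 ± 0.0568, Or2c1 at -0.39 ± 0.0427, Or1o1 at -0.37 ± 0.0443 and Vom2r36 at -0.38 ± 0.055. Other called genes, Klf7 at -1.01 ± 0.055, Hpdl at -1.01 ± 0.0807 and the histone demethylase gene Kdm6b at -0.88 ± 0.0489, were also lower.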
